A study of Mus musculus with 6 samples.

Results

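Checkpoint ligands are surface proteins by which a cell restrains T cells, natural killer cells or phagocytes. PD-L1 (Cd274) and PD-L2 (Pdcd1lg2) bind PD-1 on T cells, the tryptophan-degrading enzyme Ido1 restrains T cells by depleting tryptophan and making kynurenine, Cd47 tells phagocytes not to engulf, and the adhesion ligand Icam1 holds leukocytes through the integrin LFA-1. In other cells, interferon gamma (IFNg) is known to induce several of these genes through Jak kinases and Irf1. The 9 genes Cd274, Pdcd1lg2, Ido1, Lgals9, Tnfrsf14, Icosl, Cd47, Pvr and Icam1, taken by gene symbol from 23127 genes in the table, were followed in mouse intestinal stem cells given IFNg. Each symbol matched 1 gene.

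The cells were Lgr5-GFP high cells from the small intestine of Lgr5-GFP mice of the C57BL/6 strain, where the green reporter follows Lgr5, a receptor gene of crypt base stem cells. The 3 IFNg libraries came from cells held for 1.5 h with 1 ng/ml IFNg in ENR medium, which holds EGF, Noggin and R-spondin1. The 3 untreated libraries came from the same kind of sorted cells with no treatment, and the labels do not say how these were held. The titles of both groups carry the number 1.5. If the untreated cells were not held alike, effects of the holding and of IFNg cannot be told apart. Libraries are named by the last number of their titles, IFNg 6, 2 and 10 and untreated 5, 1 and 9, and values per library follow that order throughout. IFNg 6 and untreated 5 carry the title tag GFP1 and the other 4 libraries GFP3. What the tag means, and whether each library is of its own animal, is not in the labels. A p-value here therefore speaks only of the spread among 6 libraries, which may be technical.

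Reads in genes numbered 28508762 to 40224497 per library, and 19734 to 22371 genes were above 0. Values are scaled counts, the reads of a gene divided by 1 factor per library, so that 1 read was worth 0.853 to 1.05 scaled counts. The GFP1 libraries stood apart from the GFP3 libraries on the first principal component, at -88.2 for IFNg 6 and -54.9 for untreated 5, against 18.3 to 59.0 for the other 4. The 12 stem cell markers summed to 316087 to 320935 scaled counts in IFNg libraries and 300881 to 365029 in untreated libraries, most of it Olfm4, and Lgr5 lay at 2484 to 5310 and 2801 to 8499. The sum hides single markers, of which 4 had a log2 change above 0 and 8 below. Smoc2 averaged 21417 in IFNg libraries and 9741 in untreated libraries, and Ascl2 686 and 358. Both had overlapping groups and an unadjusted p under 0.05 in the limma test described below. Znrf3 averaged 260 and 396, with every IFNg library below every untreated one. Of 20 leukocyte markers 15 were in the table, and their sums were 170 to 232 in IFNg libraries and 149 to 212 in untreated libraries. Ptprc, the pan-leukocyte antigen CD45, was at 11.1 to 41.2 and 20.6 to 33.7. The 10 stromal and endothelial markers in the table summed to 262 to 772 in IFNg libraries and 301 to 866 in untreated libraries. The 11 Paneth cell markers summed to 34748, 113541 and 206707 in IFNg libraries, against 118761, 167599 and 369609 in untreated libraries. The groups overlapped, but the IFNg sum was the lower one in all 3 pairs of adjacent numbers. Of the 11 markers 10 had a log2 change below 0, beside 9184 of all 16095 tested genes. The list's median was -0.97, against -0.08 over all tested genes. Sums of 8 enteroendocrine markers, at 6342, 8923 and 19059.5 in IFNg libraries and 7592, 14905 and 23077 in untreated libraries, were likewise lower in all 3 pairs. Goblet sums were 76771 to 152745 and 66136 to 233374, enterocyte sums 37126 to 47639.5 and 42654 to 49283, and tuft sums 2884 to 3873 and 2535 to 3484, IFNg libraries before untreated ones. Below 0 in log2 change were 6 of 8 enteroendocrine, 5 of 7 goblet, 8 of 10 enterocyte and 1 of 6 tested tuft markers. No gene of these marker lists passed the test over all 6 libraries described below. In the 4 GFP3 libraries alone 3 of the 12 stem cell markers were called higher, beside 8.27% of all tested genes. The part of other cells in the values below was not tested. In such bulk libraries fewer cells of a type and less RNA per cell cannot be told apart.

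Ido1 and Icam1 rose 39.4-fold and 38.6-fold after 1.5 h of IFNg, and Cd274 was 31.8-fold higher but just missed the threshold. Cd47 was higher in every IFNg library than in any untreated library by a smaller factor that did not pass. Lgals9, Icosl, Tnfrsf14 and Pvr did not pass and their groups overlapped, and Pdcd1lg2 was at a few reads in either group. The test was limma on log2(scaled count + 1) over the 16095 genes averaging 10 scaled counts or more, with Benjamini-Hochberg adjustment and a threshold of 0.05. Of the 9 genes 8 were tested and 2 were called higher, beside 0.416% of all tested genes, and none was called lower, beside 0.0124%. Either call fell on 0.429% of all tested genes. At an unadjusted p under 0.05, 4 of the 8 were higher, beside 8.46% of all tested genes. In 4 of the 8 the IFNg libraries all lay above the untreated ones, beside 8.13% of all tested genes, and in none did they all lie below, beside 5.06% (13.2% in either direction). The median log2 change of the 8 was 0.65, against -0.08 over all tested genes, and 5 of 8 were above 0, beside 42.9% of all tested genes. The 9 genes were chosen with earlier results of these data known, so these shares do not test the set.

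**Figure D1:**
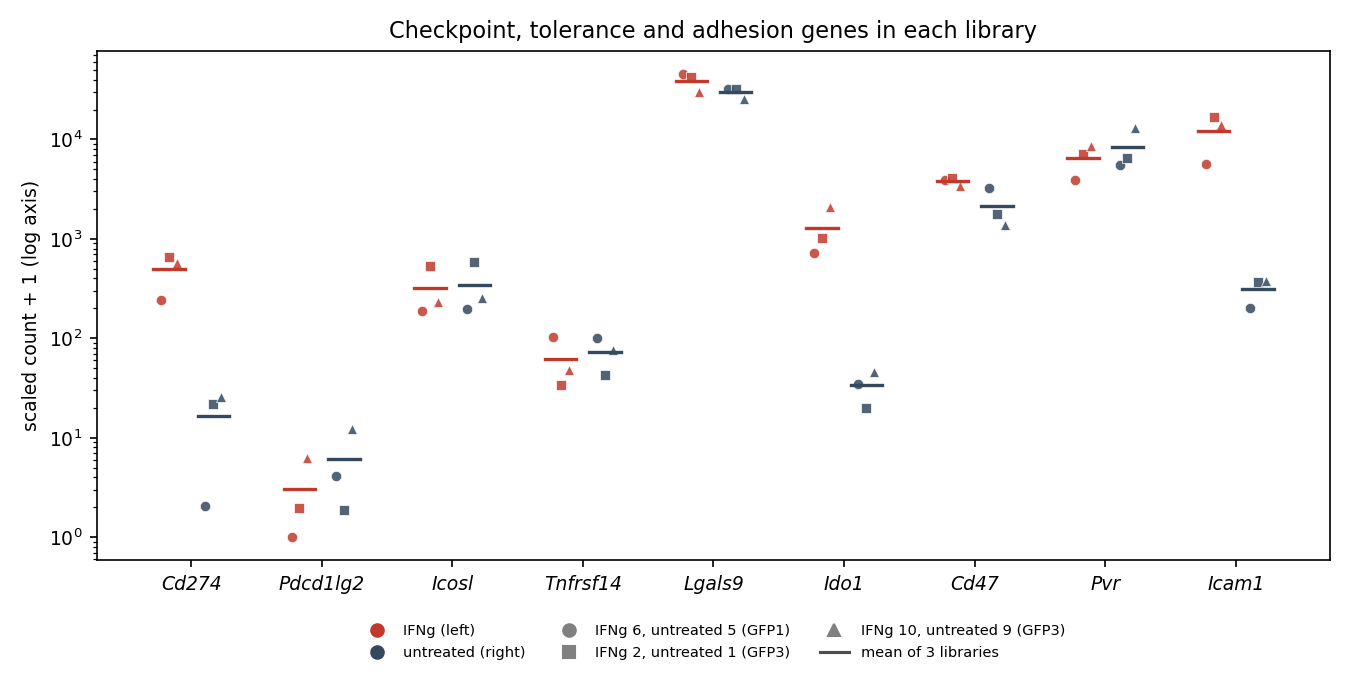
Scaled count + 1 on a log axis for each of the 9 genes, with the 3 IFNg libraries left and the 3 untreated libraries right of each gene's mark. Points are libraries, shaped by title number and tag, and bars are group means. The groups are separate for Cd274, Ido1, Icam1 and Cd47 and overlap for the other 5 genes.

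The ligand of the inhibitory receptor PD-1, Cd274, is a gene on the plus strand of chr19:29367455-29388095 (mm10), with 3622 bases of exons. It had 243, 659 and 576 scaled counts in IFNg libraries, against 1.05, 20.6 and 24.7 in untreated libraries. The groups did not overlap, and the lowest value of each group lay in its GFP1 library. The means were 492 ± 220 in IFNg libraries and 15.5 ± 12.7 in untreated libraries (SD, n = 3 each), and the log2 change was 5.44 ± 0.91 (SE, 95% interval 3.37 to 7.50) with an adjusted p of 0.0507 in limma. This placed Cd274 20th of 16095 genes by log2 change, among 0.162% of tested genes above 5, without the call.

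Untreated 5 held a single Cd274 read. Set beside the 285 reads of IFNg 6, it gave a ratio of 231 with an exact 95% counting interval of 41.1 to 9145, while the GFP3 pairs 2 and 1, and 10 and 9, gave ratios of 31.9 and 23.3. Over all libraries 1624 reads from IFNg cells stood beside 49 from untreated cells. Without untreated 5 the means differed 21.7-fold and the log2 change was 4.26, with an adjusted p of 0.00634 in limma. Within the 4 GFP3 libraries the fold was 27.2 and the log2 change 4.71, with an adjusted p of 5.27e-04 in limma, beside 8.27% of all genes called higher there. With adjacent title numbers as a replicate block the adjusted p in limma was 0.0170, in edgeR's quasi-likelihood test on the recovered reads it was 0.0493, and in DESeq2 it was 2.47e-09. These fits called 0.46%, 0.36% and 2.84% of all genes higher, in that order. Of 19 alternatives 10 put Cd274 past the threshold, with adjusted p from 2.47e-09 to 0.424 over these fits. The difference in effect between the GFP3 and GFP1 libraries was -2.19 in log2, with an adjusted p of 0.196 in limma's interaction test, where GFP1 has 1 library per group. An antisense gene of GENCODE M21, AC119228.1, overlaps 511 of the exon bases of Cd274 on the other strand and is not a gene of the table. The library kit does not mark strand, so reads of both cannot be told apart there.

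The Cd274 promoter is shown because the next gene starts beside it. In the RefSeq promoter table (GRCm38.p6, 250 bases before to 50 after the start), 7 of the 9 genes had a sequence. The window chr19:29367188-29367487, plus strand, runs 5′ to 3′, and capitals mark the 64 bases between the M21 starts of Plgrkt, which is read in the other direction, and Cd274.
Cd274: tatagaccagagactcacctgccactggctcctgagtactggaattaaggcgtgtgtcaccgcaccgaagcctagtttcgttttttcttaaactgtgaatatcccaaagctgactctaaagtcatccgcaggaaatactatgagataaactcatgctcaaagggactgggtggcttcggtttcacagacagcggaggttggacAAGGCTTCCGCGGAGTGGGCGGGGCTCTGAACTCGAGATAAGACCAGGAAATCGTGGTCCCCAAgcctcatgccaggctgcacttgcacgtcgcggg

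Plgrkt, a plasminogen receptor gene named here after its values were seen, starts 65 bases from Cd274. It had 3513, 1610.1 and 1667 scaled counts in IFNg libraries, against 2816, 1592 and 2207 in untreated libraries. These groups overlapped, and the log2 change was -0.02 ± 0.37 (SE, 95% interval -0.86 to 0.82) with an adjusted p of 0.992 in limma. Its sign changed in 5 of 19 alternatives.

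Pdcd1lg2, the second PD-1 ligand, follows Cd274 on the same strand at chr19:29410919-29471161. It had 0, 0.964 and 5.26 scaled counts in IFNg libraries, from 0, 1 and 6 reads, against 3.16, 0.860 and 11.3 in untreated libraries, from 3, 1 and 11 reads. A count of 0 allows up to 3 reads, or 2.56 scaled counts in IFNg 6, a limit for counting error only, and most of these values lie at or near it. The gene fell below the filter. In the fit without a filter its log2 change, which at such counts depends on the pseudocount, was -0.99 ± 1.00 (SE, 95% interval -3.21 to 1.24), with an adjusted p of 0.965 in limma. With 7 reads over the IFNg libraries and 15 over the untreated ones, a small change of Pdcd1lg2 was not detectable. A rise as large as that of Cd274 was not seen.

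The ligand of the T cell costimulator Icos, Icosl (chr10:78069302-78083913, plus strand), had 187, 536 and 229 scaled counts in IFNg libraries, against 197, 579.8 and 255 in untreated libraries. Each pair of adjacent numbers differed little beside the spread within a group, at log2 changes of -0.08, -0.11 and -0.16. The fit over all libraries gave a log2 change of -0.12 ± 0.52 (SE, 95% interval -1.29 to 1.06) with an adjusted p of 0.972 in limma. Tnfrsf14, known as HVEM, the ligand of the T cell receptors Btla and Cd160, lies on the minus strand of chr4:154921933-154928563. It had 101, 32.8 and 47.4 scaled counts in IFNg libraries, against 100.1, 41.3 and 75.2 in untreated libraries. The groups overlapped, and the log2 change was -0.32 ± 0.54 (SE, 95% interval -1.54 to 0.90) with an adjusted p of 0.931 in limma.

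Lgals9 encodes galectin-9, a sugar-binding protein and ligand of Tim-3, and lies on the minus strand of chr11:78962974-78984946. It had 45617, 42027 and 29671 scaled counts in IFNg libraries, against 32381, 32491 and 25292 in untreated libraries. IFNg 10 lay below untreated 5 and untreated 1, so the groups overlapped, although each IFNg library lay above the untreated library with the adjacent number. The means were 39105 ± 8365 and 30055 ± 4125 (SD, n = 3 each), a 1.30-fold difference. The log2 change was 0.37 ± 0.27 (SE, 95% interval -0.25 to 0.98) with an adjusted p of 0.854 in limma.

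**Figure D2:**
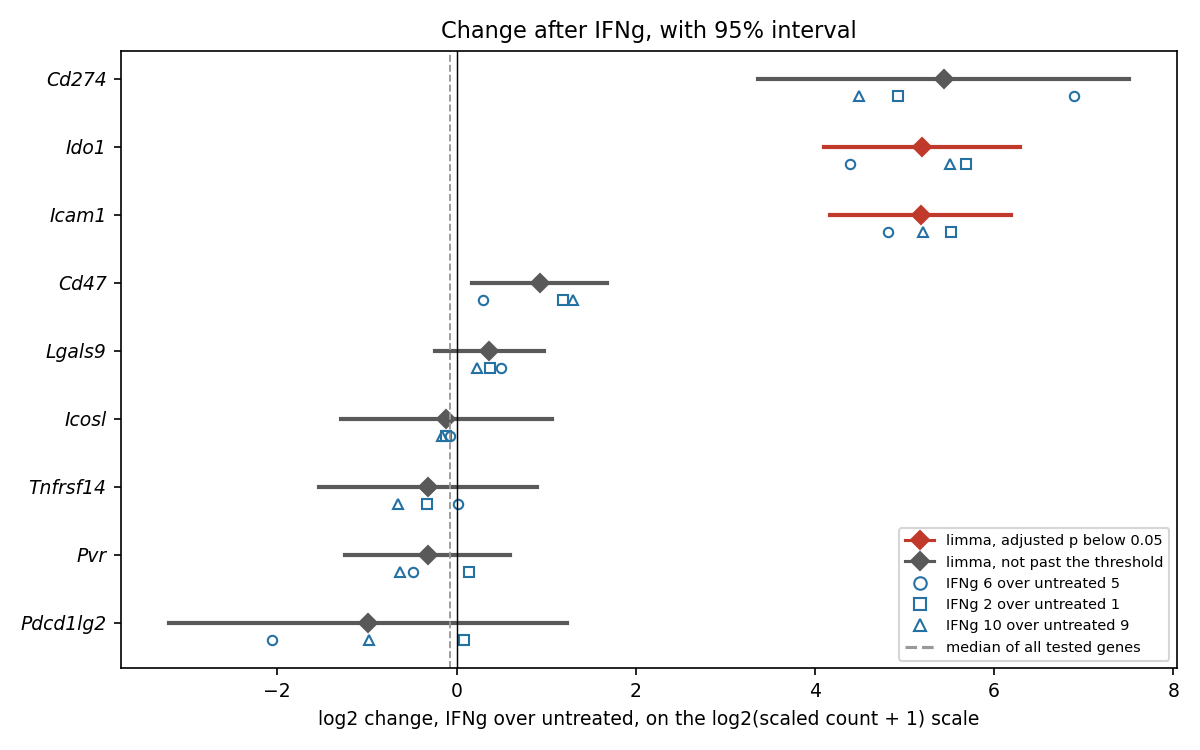
Log2 change (IFNg over untreated, on the log2(scaled count + 1) scale) of each of the 9 genes with its 95% interval from limma, and the log2 change of each pair of libraries with adjacent title numbers. Pdcd1lg2 comes from the fit without a filter. Ido1, Icam1 and Cd274 lie near 5, Cd47 at 0.93, and the intervals of the other 5 genes include 0.

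Ido1, which performs the first step of tryptophan breakdown to kynurenine, lies on the minus strand of chr8:24584136-24597009. It had 727, 1023 and 2108 scaled counts in IFNg libraries, against 33.7, 18.9 and 45.3 in untreated libraries. Every IFNg library lay far above every untreated one. Ido1 rose 39.4-fold, to 1286 ± 727 in IFNg libraries, against 32.7 ± 13.2 in untreated libraries (SD, n = 3 each). The log2 change was 5.19 ± 0.48 (SE, 95% interval 4.10 to 6.29) with an adjusted p of 0.00121 in limma. All 19 alternatives kept it past the threshold, at log2 changes of 4.76 to 5.60 and adjusted p of 6.08e-22 to 0.0418 over these fits. The pairs of adjacent numbers gave log2 changes of 4.39, 5.68 and 5.51. IFNg 10 was the highest Ido1 library, while IFNg 2 was highest for Cd274 and Icam1.

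The neighbour Ido2, a second tryptophan-degrading enzyme, begins 7.80 kb after Ido1 on the same strand. It had 5.97, 28.0 and 79.8 scaled counts in IFNg libraries, against 0, 5.16 and 42.2 in untreated libraries. Each IFNg library lay above its adjacent untreated library, but the groups overlapped. Ido2 had a log2 change of 1.98 ± 1.40 (SE, 95% interval -1.19 to 5.15) with an adjusted p of 0.848 in limma. That change was 0.64 without untreated 5 and 3.35 without untreated 9. Ido2 and the genes beside Icam1 were named after their values were seen.

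Cd47, the ligand of the phagocyte receptor Sirpa, lies on the plus strand of chr16:49800533-49915010. It had 3952, 4096 and 3437 scaled counts in IFNg libraries, against 3226, 1790.3 and 1394 in untreated libraries. The groups did not overlap, and the smallest gap was between IFNg 10 and untreated 5. The means were 3828 ± 347 and 2137 ± 964 (SD, n = 3 each), a 1.79-fold difference. The log2 change was 0.93 ± 0.33 (SE, 95% interval 0.17 to 1.69), with an unadjusted p of 0.0214 and an adjusted p of 0.393 in limma. By pair the log2 changes were 0.29 in the GFP1 pair and 1.19 and 1.30 in the GFP3 pairs. Within the GFP3 libraries alone, where 8.27% of all tested genes were called higher, the log2 change was 1.25. Its adjusted p there was 0.0197 in limma, the 1 alternative of 19 that passed. The difference of that effect between the tags was 0.95 with an adjusted p of 0.410 in limma's interaction test.

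Pvr, a nectin-like protein that binds both the activating receptor Cd226 and the inhibitory receptor Tigit, lies on the minus strand of chr7:19903578-19921160. It had 3952, 7200.3 and 8529 scaled counts in IFNg libraries, against 5519, 6514 and 13164 in untreated libraries. The groups overlapped, with the highest value in untreated 9. The log2 change was -0.32 ± 0.41 (SE, 95% interval -1.24 to 0.60) with an adjusted p of 0.906 in limma.

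Icam1, the ligand by which leukocyte integrins grip a cell, lies on the plus strand of chr9:21015985-21028817 with 4360 bases of exons. Its promoter is shown because Icam1 rose and letters of an interferon-gamma activated site and of a kB-type site lie close to its start. The window chr9:21015690-21015989, plus strand, runs 5′ to 3′. Capitals mark matches to the letters searched on both strands: GGAAATTCC, a kB-type site searched after this promoter was read, then GGACCACCCC, the other-strand match to the NF-kB letters (GGG, any 5 bases, CC), and TTCCCGGAA, a match to the interferon-gamma activated site (GAS) letters TTCNNNGAA.
Icam1: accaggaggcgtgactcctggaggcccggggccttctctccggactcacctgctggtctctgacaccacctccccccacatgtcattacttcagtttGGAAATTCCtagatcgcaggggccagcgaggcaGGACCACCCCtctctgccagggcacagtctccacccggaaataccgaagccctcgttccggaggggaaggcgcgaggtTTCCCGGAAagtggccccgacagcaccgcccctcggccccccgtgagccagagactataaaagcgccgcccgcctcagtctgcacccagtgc

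The GAS letters begin 42 bases before the RefSeq start of Icam1 and occur in 8.30% of 32851 promoters of this length. Among the 7 promoters held they were in Icam1 alone. The kB-type letters begin 153 bases before the start and occur in 0.317% of promoters. The NF-kB letters, whose Icam1 match begins 120 bases before the start and shares no base with the other matches, occur in 50.8% of promoters and in 5 of the 7, Icam1, Icosl, Lgals9, Pdcd1lg2 and Tnfrsf14. The interferon-stimulated response element core (GAAA, any 2 bases, GAAA), in 3.44% of promoters, was in Lgals9 and Tnfrsf14, and in Lgals9 at 2 places. The longer form, the core followed by CT, in 0.271%, was in none of the 7. None of the searched letters occurred in the Cd274 window. A match describes letters only.

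Icam1 had 5645, 16793 and 14022 scaled counts in IFNg libraries, against 199, 366 and 378 in untreated libraries. The groups were far apart, and the GFP1 library was the lowest of each group, as for Cd274. Icam1 rose 38.6-fold, to 12153 ± 5804 in IFNg libraries, against 315 ± 100 in untreated libraries (SD, n = 3 each). Its log2 change was 5.18 ± 0.45 (SE, 95% interval 4.17 to 6.19) with an adjusted p of 7.75e-04 in limma. All 19 alternatives kept it past the threshold, at log2 changes of 4.88 to 5.66 and adjusted p of 1.09e-26 to 0.0297 over these fits. By pair the log2 changes were 4.82, 5.51 and 5.21. The antisense gene Gm47079 of GENCODE M21 overlaps 511 exon bases of Icam1 on the other strand and is not a gene of the table, so their reads cannot be told apart there.

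Icam4, an adhesion ligand of red cells in the same gene cluster, begins 0.556 kb after Icam1 on the same strand. It had 3.41, 13.5 and 12.3 scaled counts in IFNg libraries, against 15.8, 12.9 and 2.06 in untreated libraries. Icam5, known from neurons, averaged 5.05 in IFNg libraries and 2.39 in untreated libraries. Both genes averaged under 10 scaled counts over the 6 libraries and were not tested. Around all 9 genes, the 2 nearest genes of the table on each side were 32 distinct genes, of which 21 were tested and 0 passed in either direction in limma.

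**Figure D3:**
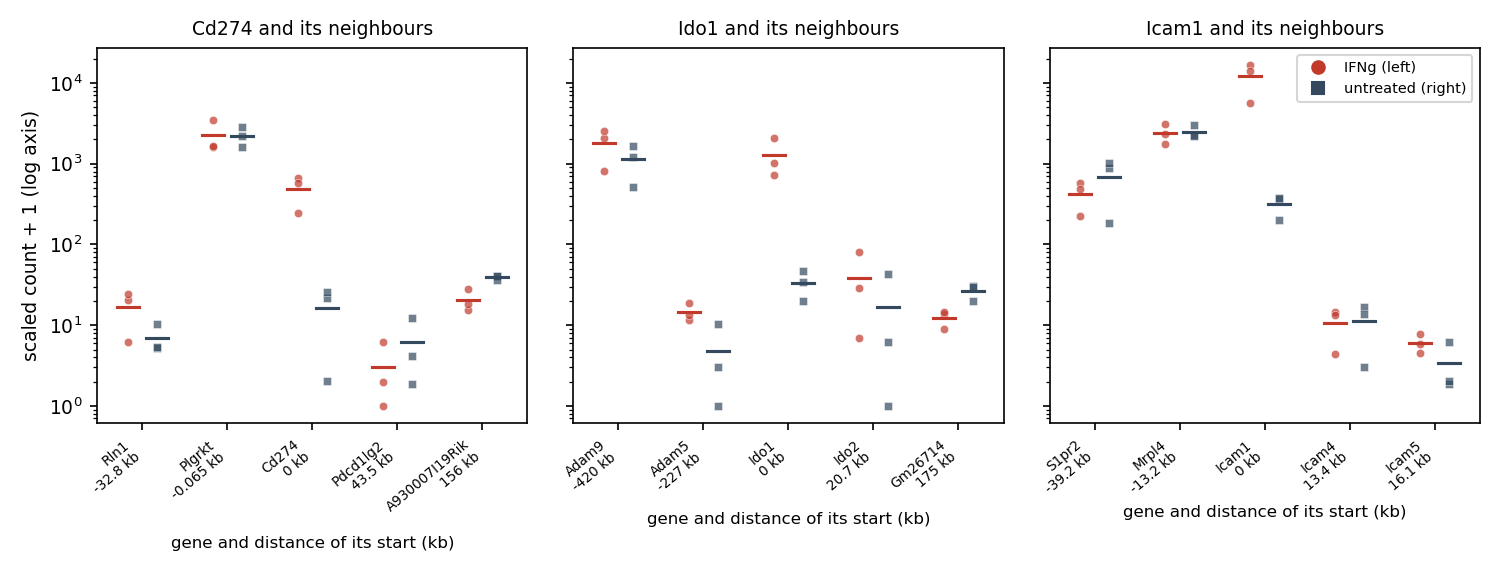
Scaled count + 1 on a log axis for Cd274, Ido1 and Icam1 and the 2 nearest genes of the table on each side, placed in the order of transcription of the named gene, with the distance between gene starts in kb. Points are libraries and short bars group means, IFNg left of untreated. Only the named gene of each panel shows groups more than 10-fold apart in mean.

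Per kb of annotated exon, which allows levels of different genes to be compared, Lgals9 was the most abundant of the 9 in both groups, with a mean of 18299 scaled counts per kb in IFNg libraries and 14064 in untreated libraries. In IFNg libraries Icam1 came next at 2787, followed by Pvr at 1072, Ido1 at 705, Cd47 at 610.0, Cd274 at 136, Icosl at 68.7, Tnfrsf14 at 42.1 and Pdcd1lg2 at 1.06 scaled counts per kb. Only 3 neighbouring steps of that order were wider than the spread over libraries, those below Lgals9, below Cd47 and below Tnfrsf14. In untreated libraries the order after Lgals9 was Pvr at 1372, Cd47 at 340.5, Icosl at 74.5, Icam1 at 72.1, Tnfrsf14 at 50.2, Ido1 at 17.9, Cd274 at 4.27 and Pdcd1lg2 at 2.61 scaled counts per kb. There the ranges of Icosl and Icam1, of Icam1 and Tnfrsf14, and of Cd274 and Pdcd1lg2 overlapped. Icam1 thus stood next to Lgals9 in IFNg libraries and in the overlapping ranges of Icosl and Tnfrsf14 in untreated libraries. Cd274 lay below the range of Icosl in untreated libraries and overlapped it in IFNg libraries.

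**Figure D4:**
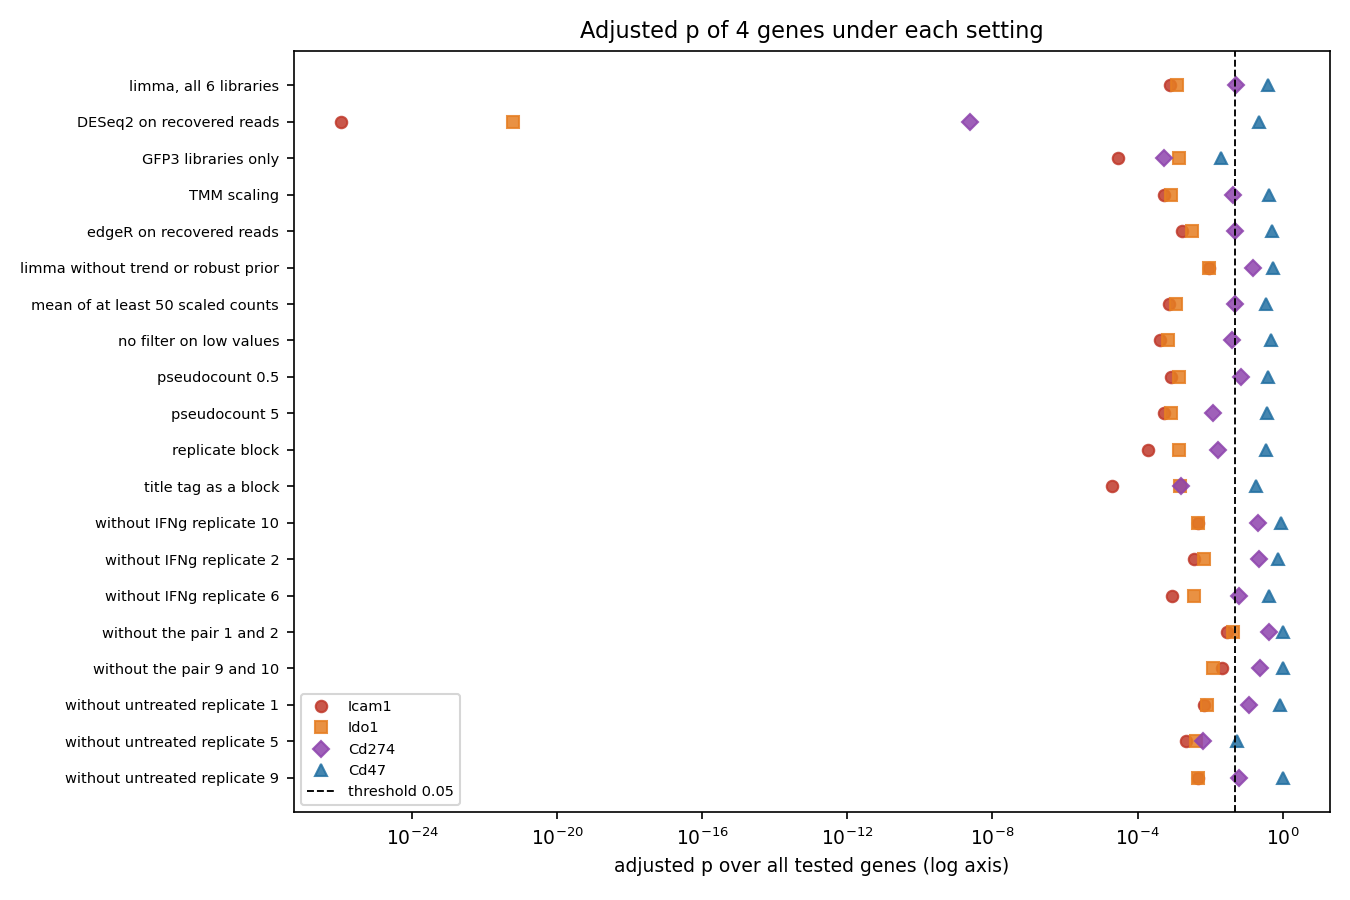
Adjusted p on a log axis for Icam1, Ido1, Cd274 and Cd47 under the limma test of all 6 libraries (top) and 19 alternatives, with the threshold of 0.05 as a dashed line. Icam1 and Ido1 lie past the line in all 19 alternatives, Cd274 in 10 and Cd47 in 1.

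By the root mean square difference of centred log2 values over the 6 libraries, the genes with a pattern most like that of Cd274 were Gbp4, 9930111J21Rik1 and Il24, at 0.365, 0.524 and 0.598. Gbp4, an interferon-induced GTPase with near copies that make its reads uncertain, had 333, 742 and 433 scaled counts in IFNg libraries, against 2.11, 18.1 and 34.0 in untreated libraries. Like Cd274 it was lowest in untreated 5. Its log2 change was 5.22 with an adjusted p of 0.0347 in limma, and of 0.0539 with the replicate block. For Ido1 the nearest were Cxcl11, a chemokine gene annotated as a polymorphic pseudogene in GENCODE M21, at 0.465, the transcription factor gene Irf1 at 0.572 and Icam1 at 0.639. For Icam1 they were Gm11775, an antisense RNA, at 0.421, Irf1 at 0.512 and Igtp, an immunity-related GTPase with related copies, at 0.576. Likeness over 6 libraries in 2 groups mostly reflects the difference between the groups.

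The other genes that act with the 9 genes were followed in 6 lists, which were also chosen with earlier results of these data known. Among 32 other checkpoint and B7-family ligands, 28 were in the table and 23 were tested. None passed in either direction in limma, and edgeR called 0. Higher at an unadjusted p under 0.05 in limma was 1, beside 8.46% of all tested genes. DESeq2 called 1 higher, beside 2.84%. The list's median log2 change was -0.05, with 9 above 0 and 14 below, near the -0.08 of all tested genes. The lowest p belonged to Btnl9, a butyrophilin-like gene, with 75.1, 44.4 and 49.1 scaled counts in IFNg libraries, against 6.32, 8.60 and 17.5 in untreated libraries. These groups did not overlap, and the log2 change was 2.35 ± 0.56 (SE) with an adjusted p of 0.236 in limma and 0.00766 in DESeq2. Cd276, the ligand B7-H3, had 273, 902 and 838 scaled counts in IFNg libraries, against 282, 396 and 243 in untreated libraries. Its groups overlapped through IFNg 6, with a log2 change of 0.97 and an adjusted p of 0.624 in limma. In the GFP3 libraries alone the adjusted p in limma was 0.0236, beside 8.27% of all tested genes called higher there. Of 9 ligands of the natural killer receptor NKG2D, 4 were in the table and 2 were tested. These were Raet1e and Ulbp1, at log2 changes of 0.19 and -0.77 and adjusted p of 0.962 and 0.893 in limma. No NKG2D ligand had an unadjusted p under 0.05, and edgeR and DESeq2 called 0.

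Of 21 genes of tryptophan breakdown, transport and sensing beside Ido1, 19 were in the table and 13 were tested. None passed in limma or edgeR, and the median log2 change was 0.03. Higher at an unadjusted p under 0.05 in limma were 2, beside 8.46% of all tested genes. DESeq2 called 2 higher, beside 2.84%. Tiparp, a target of the aryl hydrocarbon receptor that senses kynurenine, had 3000.3, 3291 and 5036 scaled counts in IFNg libraries, against 2117, 864 and 715 in untreated libraries. The groups did not overlap, and the log2 change was 1.75 ± 0.43 (SE) with an adjusted p of 0.251 in limma, 0.0278 in DESeq2 and 0.0150 in limma without untreated 5. Other targets of that receptor in the list are named outside the rule, after their values were seen. Ahrr had overlapping groups, with a log2 change of 2.24 and an adjusted p of 0.678 in limma. Cyp1a1 averaged 1.93 in IFNg libraries and 7.40 in untreated libraries, and Cyp1b1 0.935 and 0.860, both below the filter. Activity of the receptor was not tested. Slc7a5, which carries tryptophan into cells, had 309, 1139.6 and 2727 scaled counts in IFNg libraries, against 374, 321 and 282 in untreated libraries. Only IFNg 2 and IFNg 10, both tagged GFP3, were above all untreated libraries, and the log2 change was 1.61 with an adjusted p of 0.487 in limma and 0.0366 in DESeq2.

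Of 19 other adhesion ligands 16 were in the table and 11 were tested. None passed in limma or edgeR, and the median log2 change was -0.22. Higher at an unadjusted p under 0.05 in limma was 1, beside 8.46% of all tested genes. DESeq2 called 1 higher, beside 2.84%. Epcam, an epithelial adhesion protein, had 19346, 42859 and 73222 scaled counts in IFNg libraries, against 19431, 8445 and 8895 in untreated libraries. The GFP1 libraries were nearly equal and the GFP3 libraries far apart. The log2 change was 1.79 with an adjusted p of 0.296 in limma and 0.0220 in DESeq2. In the GFP3 libraries alone the adjusted p in limma was 0.00248, beside 8.27% of all tested genes called higher there. Cd34, a selectin ligand of vessels and blood progenitors, had a log2 change of 1.55 with an adjusted p of 0.858 in limma. It was at 0 in untreated 5, and without that library the change was 0.20.

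Of 22 genes that signal to or regulate the 9 genes, all were tested and 3 rose in limma, in edgeR and with the replicate block, with none lower. The 3 stand beside 0.416% of all tested genes called in limma. DESeq2 called 7 of the 22 higher, beside 2.84% of all tested genes, and the GFP3 libraries alone gave 7, beside 8.27%. The list's median log2 change was 0.28, and 9 of the 22 were higher in every IFNg library than in any untreated library, beside 8.13% of all tested genes. Irf1, a transcription factor that acts on interferon-induced promoters, had 55019, 66943 and 56965 scaled counts in IFNg libraries, against 1718, 1726 and 1876 in untreated libraries. It rose 33.6-fold with little spread, at a log2 change of 5.07 ± 0.23 (SE) and an adjusted p of 2.33e-05 in limma. Socs1, an inhibitor of Jak kinases, had 1705, 3544 and 6443 scaled counts in IFNg libraries, against 59.0, 10.3 and 12.4 in untreated libraries. It rose 143-fold, and 344-fold without untreated 5, at a log2 change of 7.34 ± 0.69 (SE) and an adjusted p of 0.00124 in limma. Socs3, an inhibitor of cytokine receptors, had 13212, 18505 and 14049.6 scaled counts in IFNg libraries, against 1829.8, 1178 and 731 in untreated libraries. It rose 12.2-fold, at a log2 change of 3.70 ± 0.35 (SE) and an adjusted p of 0.00140 in limma, which was 0.0638 without the pair 1 and 2.

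Jak2, Cmtm6 and Qpctl of that list are named outside the rule for named genes, after their values were seen. Jak2 had 1237, 1014 and 1742 scaled counts in IFNg libraries, against 588, 637 and 524 in untreated libraries, a log2 change of 1.16 with an adjusted p of 0.280 in limma. Its groups did not overlap. Cmtm6, which keeps PD-L1 at the cell surface, had a log2 change of -0.43 with an adjusted p of 0.883 in limma, and Qpctl, an enzyme that modifies Cd47 for Sirpa binding, one of -0.74 with an adjusted p of 0.850.

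Of 16 genes for receptors and partners that meet these ligands on other cells, 13 were in the table. Of these, 8 averaged under 10 scaled counts and 5 were tested. The highest was Thbs1, a secreted ligand of Cd47, at 15700.2 to 125041 scaled counts in IFNg libraries and 36050.0 to 190879 in untreated libraries. None passed in limma, edgeR or DESeq2, and none had an unadjusted p under 0.05. Pdcd1, the PD-1 gene, was at 0 in all 3 IFNg libraries and at 0, 0 and 3.09 scaled counts in untreated libraries. The lowest p values belonged to Lta, a lymphotoxin, with a log2 change of -1.78 and an adjusted p of 0.641 in limma, and Itgal, a chain of the Icam1 receptor LFA-1, with -0.58 and 0.883.

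**Figure D5:**
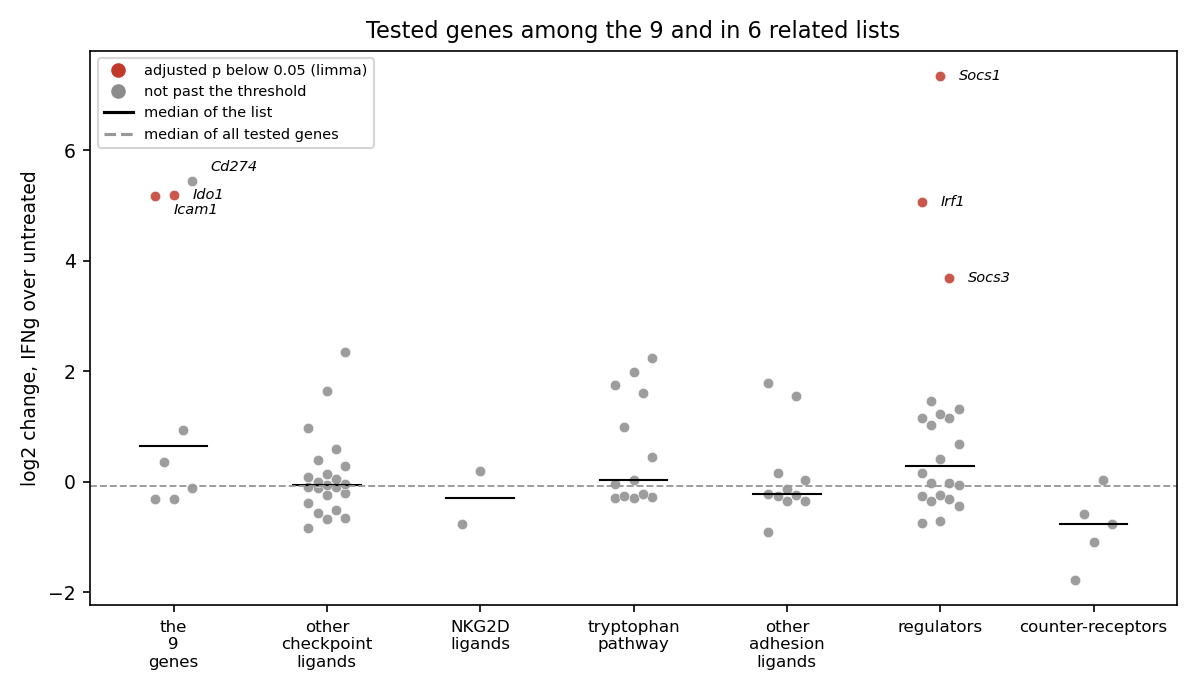
Log2 change (IFNg over untreated, each point 1 tested gene) in the 9 genes and the 6 related lists, with red points for genes past the limma threshold, bars for list medians and a dashed line for the median of all tested genes. The red points are Ido1 and Icam1 among the 9 genes and Irf1, Socs1 and Socs3 among the regulators.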

How the data were processed

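The signal that the authors deposited is a scaled count, the reads of a gene in a library over that library's size factor, as the file name says. Per the submitters' processing notes, mm10, DESeq 1.22.1, HTSeq 0.5.3, STAR 2.5.0a and cutadapt 1.6 were used, with no roles stated. The annotation, and whether counting used strand, is not given in the sources used here. Per the labels' protocols, 2 ng of RNA went through SMART-Seq v4 with 12 cycles and a KAPA preparation with 8. That chemistry marks neither strand nor molecules, so the limit that a count of 0 allows and the exact interval of a read ratio cover counting error only. Of all values, 18.5% to 25.0% per library lay in the row of reads aligned more than once, 9.67% to 14.2% in reads outside genes, 8.83% to 15.4% in unaligned and 0.948% to 1.20% in ambiguous reads. These 4 rows were kept out of the tests.

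Dividing by each library's smallest step gave whole reads, within 0.01, for 100% of 138762 values. The test was limma 3.58.1 in R 4.3.3 (trended, robust, two-sided) on log2(scaled count + 1) over the 16095 genes averaging 10 or more, adjusted by Benjamini-Hochberg over all of them. The added 1 pulls the log2 change of a gene with few counts toward 0. Folds are ratios of mean scaled counts. Where 1 untreated library is near 0, as for Cd274, the log2 change can still exceed the log2 of the fold. The 95% intervals of log2 changes come from limma and rest on the spread between libraries. EdgeR 4.0.16 and DESeq2 1.42.0 ran on the recovered reads. Groups came from titles and treatment labels. Correlations of deviations from group means were 0.302 (libraries 6 with 5), 0.404 (2 with 1) and 0.252 (10 with 9). Each remaining combination of a treated with an untreated library gave a negative value. Deviations within a group sum to 0, which by itself pushes these values below 0, so they add little. Libraries 6 and 5 are also the only GFP1 libraries, so their value cannot tell a pair from the tag. Within GFP3, the crossed combinations were lower, at -0.0440 (2 with 9) and -0.0308 (10 with 1). Adjacent numbers were taken to pair libraries on this basis, from the data and not the labels, and the pairing remains an assumption.

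The members and lists were chosen with earlier results of these data known. Named by rule were the 9 genes, in each list those past the threshold or else the 2 with the smallest p, neighbours past it, and for each gene of the 9 with a log2 change above 2 the 3 genes of nearest pattern. Positions and exon lengths are from GENCODE M21 and promoters from RefSeq, GRCm38.p6.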

Additional observations from a re-analysis of the deposited data

How the results depend on the processing

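Ido1 and Icam1 kept their direction and call in all 19 alternatives, and 135 of 152 values of the 8 tested genes kept both direction and side of the threshold. Another 11 came past it (Cd274 in 10 settings, Cd47 in the GFP3 libraries alone) and 6 turned in sign, none of them called. Leaving out 1 library gave log2 changes of -0.57 to 0.34 for Icosl (0.040 without IFNg 10, 0.19 without IFNg 6, 0.34 without untreated 1), of -0.77 to 0.033 for Tnfrsf14 (0.033 without IFNg 2) and of -0.57 to 0.057 for Pvr (0.0080 without IFNg 6, 0.057 without untreated 9). For Raet1e it gave -0.30 to 0.52 (-0.20 without IFNg 6, -0.30 without untreated 1), with -0.047 in the GFP3 libraries and -0.059 without the pair 1 and 2. Cd34 was at -0.21 in the GFP3 libraries. Plgrkt was at 0.061 in DESeq2 and 0.17 without the pair 9 and 10, and at -0.39 to 0.17 with 1 library left out (0.15 without IFNg 10, 0.17 without IFNg 2, 0.17 without untreated 5). The cause of these turns was not tested.

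Genes called higher numbered 67 of all tested, 40 to 366 with 1 library left out (366 without untreated 5), 457 in DESeq2, 1331 in the GFP3 libraries, 108 with the tag as a block, 29 without the pair 1 and 2 and 32 without the pair 9 and 10. The replicate block gave 74, and edgeR 58. Genes called lower numbered 2, and 1 to 3 with 1 library left out, 8 in DESeq2, 12 in the GFP3 libraries, and 1 each with a mean filter of 50, a pseudocount of 0.5, the replicate block, without the pair 1 and 2 and without the pair 9 and 10. Of the 9 genes 4 were called higher in the GFP3 libraries and 2 in all 6, and 2 to 3 with 1 library left out. In the GFP3 libraries 8.27% of all tested genes were called higher. The calls there were 1 of 23 in the checkpoint list, 2 of 13 in the tryptophan list and 1 of 11 in the adhesion list. Among regulators they were 7 of 22, among stem cell markers 3 of 12 and among neighbours 1 of 21. A single call among 11 to 23 genes lies near or below the share of all genes. Besides Cd274 and Gbp4, the replicate block changed the call of none of the genes named by rule. Of the 7 promoters held for the 9 genes, 0 matched the stricter interferon-stimulated response element and 1 the added kB-type letters.

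A 3 against 3 design with 1 GFP1 library per group and reads without molecular identifiers limits every value here. So does the unstated holding of the untreated cells. At a few reads, values such as those of Pdcd1lg2, Icam4, Icam5 and Cd274 in untreated 5 are also limited by depth. TMM scaling moved the median log2 change of all genes to -0.12 and brought Cd274 past the threshold, for 3 of the 9 genes called higher.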
